A study of Homo sapiens with 6 samples.

Results

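The genes described here are the SR proteins, the heterogeneous nuclear ribonucleoproteins (hnRNPs) and core proteins of the early spliceosome. They were chosen by symbol alone: protein-coding genes named SRSF with a number, HNRNP, SF3A or SF3B, SNRP, SRRM1 or SRRM2, and U2AF. The rule found 64 genes among the 34486 genes of the tables, of which 19692 are protein-coding, and these 64 genes have 802 listed transcripts. The RNA came from MCF10A, a non-tumorigenic but immortalised human line of breast epithelium. Cells had received an siRNA against PDCD4 (siPDCD4, 3 libraries) or a control siRNA (siCT, 3 libraries), each at 10 nM for 48 h. PDCD4, a tumour suppressor that binds RNA, is known as an inhibitor of the initiation helicase eIF4A.

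Splicing starts when U1 snRNP pairs with the 5′ splice site and U2AF binds the 3′ splice site, after which U2 snRNP, with its SF3a and SF3b subunits, engages the branch point. The Sm proteins form the ring on which these snRNPs are built. SR proteins mostly bind exons and recruit the splicing machinery, while hnRNPs often act against them. Many genes of both families limit their own output by including a "poison" exon, whose early stop codon sends the transcript to nonsense-mediated decay, or by keeping an intron.

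Of the SR exons of this kind that could be followed here 5 are shown, since the shares of transcripts that carry them are given further on. Each line gives the GRCh38 bases from the start of the exon to the premature stop codon, which is in capitals.
SRSF3, exon of 456 bases, chr6:36599821-36599854, plus strand: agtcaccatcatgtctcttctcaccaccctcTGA
SRSF4, exon of 175 bases, chr1:29166009-29166064, minus strand: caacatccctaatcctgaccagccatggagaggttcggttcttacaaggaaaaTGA
SRSF6, exon of 268 bases, chr20:43459153-43459304, plus strand: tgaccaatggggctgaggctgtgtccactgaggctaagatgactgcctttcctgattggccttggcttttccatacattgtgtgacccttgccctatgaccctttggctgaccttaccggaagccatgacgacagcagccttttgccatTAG
SRSF7, exon of 449 bases, chr2:38749319-38749346, minus strand: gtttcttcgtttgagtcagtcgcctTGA
SRSF11, exon of 117 bases, chr1:70231859-70231908, plus strand: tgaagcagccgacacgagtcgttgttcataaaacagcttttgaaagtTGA

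Estimated counts per library totalled between 15547679 and 18619778 in siPDCD4 and between 13410441 and 21828931 in siCT. PDCD4 itself was at 9.16, 7.44 and 8.63 CPM (counts scaled for library size and average transcript length) in siPDCD4 replicates 1, 2 and 3, against 90.5, 89.1 and 61.1 CPM in siCT replicates 1, 2 and 3. The libraries came from epithelial cells: basal mammary markers summed to between 6109 and 6656 CPM in siPDCD4 and between 6459 and 6838 CPM in siCT, while fibroblast, leukocyte and endothelial markers each stayed at or below 21.3 CPM in siPDCD4 and 18.3 CPM in siCT. The first principal component, with 29.3% of the variance, placed siCT replicate 3 at 30.6 and the other libraries between -16.5 and 8.65. Its total count was the lowest, and its retained-intron share of the members' counts the highest, of the 6. No label says that replicates were separate cultures, so the spread behind each p-value may be technical.

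Most splicing factors differed little between siPDCD4 and siCT. The 64 genes held 1.17%, 1.13% and 1.12% of the counts in siPDCD4 replicates 1, 2 and 3, against 1.21%, 1.13% and 1.05% in siCT replicates 1, 2 and 3. Their TPM (Salmon's relative abundance, a level per length) summed to 8214 ± 281 in siPDCD4 and 8131 ± 743 in siCT (SD, n = 3 each). Of the 61 genes with enough counts to be tested, 33 had a log2 fold change above 0 and 28 below, and the median was 0.0028, beside -0.0055 over all 13047 genes tested. In edgeR's quasi-likelihood test at an FDR of 5% 1 member was called, SRRM2, which was lower in siPDCD4. Over all genes the test called 0.429%. At an unadjusted p under 0.05 there were 2 members, SRRM2 and HNRNPA3, beside 8.62% of all genes. The groups did not overlap for 5 members, HNRNPA3 and SRSF12 (higher in siPDCD4) and SRRM2, SRRM1 and SRSF4 (lower), beside 13.9% of all genes.

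These small differences had narrow intervals, though the spread behind them may be technical. For 55 of the 61 members (90.2%) the 95% interval of the fold change lay within 1.5-fold in either direction, against 64.7% of all genes tested. Interval width depends on count level, which was not matched between the members and all genes. The 6 members whose interval reached past 1.5-fold were SRRM2, SRSF12, SF3A1, U2AF1L4, HNRNPA1L3 and HNRNPR. For HNRNPR alone it reached past 2-fold. In bulk RNA fewer cells with a transcript and less of it in each cell cannot be told apart.

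**Figure D1:**
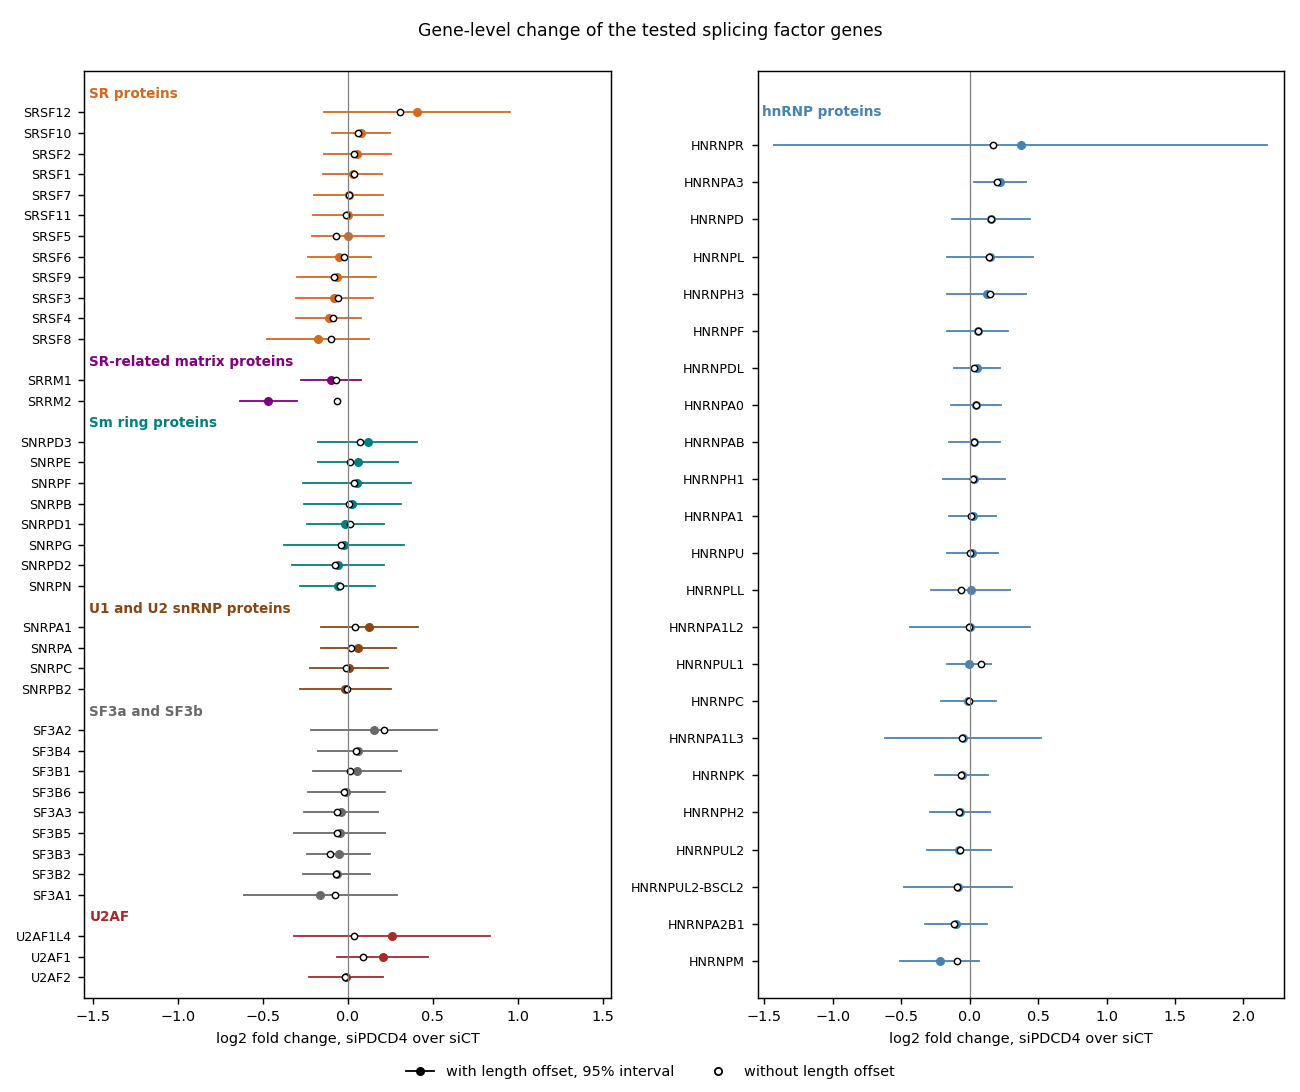
Log2 fold change (siPDCD4 over siCT) of the 61 tested genes, by role. Filled points with bars are estimates with the length offset and their 95% intervals, and open points are estimates without it. SRRM2 is the one gene whose filled point (-0.47) and open point (-0.06) lie far apart while its interval excludes 0.

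The group's median lay near 0, and its sign turned when some single libraries were left out. Without siPDCD4 replicate 1 or 2 the members' median log2 fold change was -0.0064 or -0.0137. Without siCT replicate 3 it was -0.05 and 17 of 61 lay above 0, beside a median of -0.0095 over all genes. Without siCT replicate 1 it stayed positive at 0.07 and 45 of 61 lay above 0, beside 0.0050 over all genes. The total count of siCT replicate 1 was the highest of the 6 libraries and that of siCT replicate 3 the lowest, and the part of depth in this shift was not tested.

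SRRM2 (chromosome 16, 2752626 to 2772538, plus strand) encodes a very large serine- and arginine-rich protein of the spliceosome and of nuclear speckles, the bodies in which splicing factors gather. Its level corrected for transcript length was 328, 329 and 326 CPM in siPDCD4 replicates 1, 2 and 3, against 447, 435 and 477 CPM in siCT replicates 1, 2 and 3. All siPDCD4 libraries thus lay below all siCT libraries. The log2 fold change was -0.47 ± 0.08 (SE; 95% interval -0.64 to -0.30), with an adjusted p = 0.0315 in edgeR.

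That call rested on the average transcript length, which differed between the libraries. SRRM2 drew 6422, 5364 and 6569 estimated counts in siPDCD4 replicates 1, 2 and 3, against 6601, 6513 and 6140 in siCT replicates 1, 2 and 3. Scaled for library size alone these were 360, 374 and 407 CPM in siPDCD4, against 321, 370 and 501 CPM in siCT, and the groups overlapped fully. The average length of an SRRM2 transcript, weighted by TPM as tximport computes it, was 2327, 2424 and 2643 bases in siPDCD4 replicates 1, 2 and 3, against 1512, 1821 and 2210 bases in siCT replicates 1, 2 and 3. Every siPDCD4 library had the longer average, a log2 difference of 0.43 ± 0.15, but in limma its adjusted p was 1.00 (unadjusted p = 0.0372) over 11857 genes. Without the length offset the log2 fold change of SRRM2 was -0.06 ± 0.15 (adjusted p = 0.963 in edgeR), and 0 of the 61 members passed the 5% FDR, while 1 had an unadjusted p under 0.05. The same test called 0.981% of all genes, and 9.96% had an unadjusted p under 0.05. By limma-voom, which was run without the offset, 0 members were called, beside 108 of all 13047 genes. By DESeq2 with the offset SRRM2 was the 1 member called, beside 181 of 13821 genes.

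**Figure D2:**
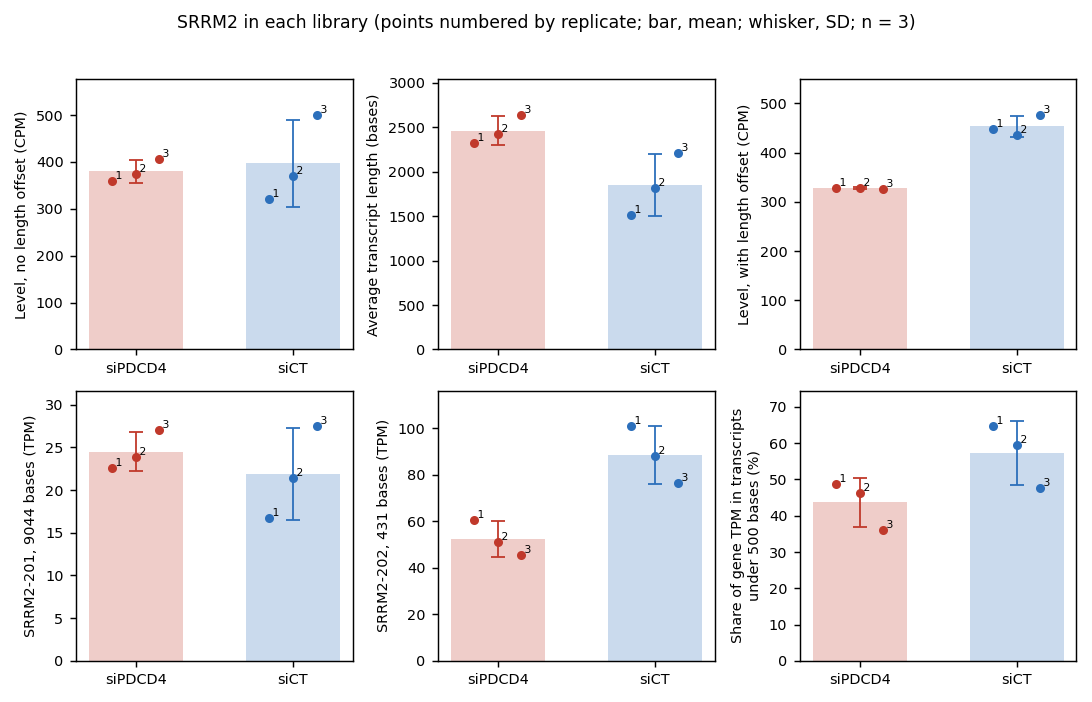
SRRM2 in each library, siPDCD4 in red and siCT in blue, on 6 scales: level without and with the length offset (CPM), average transcript length (bases), the TPM of SRRM2-201 and of SRRM2-202, and the percent of the gene's TPM in transcripts under 500 bases. Points are libraries, numbered by replicate, bars are means and whiskers SD (n = 3). Only with the offset do the levels separate tightly, at 326 to 329 CPM in siPDCD4 and 435 to 477 CPM in siCT.

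The average length moved with a few short transcripts, above all 1 at the gene's 3′ end. SRRM2-201, the canonical coding transcript of 9044 bases, had 3920, 3345 and 4313 counts in siPDCD4, against 3519.1, 3571.5 and 3473.9 in siCT, and 22.6, 23.9 and 27.0 TPM in siPDCD4, against 16.7, 21.5 and 27.5 TPM in siCT. In TPM the groups overlapped, with means of 24.5 ± 2.27 in siPDCD4 and 21.9 ± 5.4 in siCT (SD, n = 3 each). SRRM2-202 has 431 bases and no annotated coding sequence. It spans 2770911 to 2771412, inside the last exon of SRRM2-201 and beyond its stop codon, and differs from that exon by the removal of 71 bases after position 2771049. It had 286, 195 and 195 counts in siPDCD4 replicates 1, 2 and 3, against 567, 411 and 264 in siCT replicates 1, 2 and 3. In TPM it was at 60.5, 51.2 and 45.5 in siPDCD4, against 101, 88.2 and 76.2 in siCT, so that a transcript with a few percent of the counts held the largest share of the gene's TPM in 6 of 6 libraries. In edgeR's transcript test its log2 fold change was -0.78 ± 0.18 (unadjusted p = 0.00467, adjusted p = 0.678). SRRM2-216, annotated for nonsense-mediated decay with 459 bases, had 27.0, 42.5 and 0 counts in siPDCD4, against 89.4, 108.8 and 44.9 in siCT. Together the 5 SRRM2 transcripts under 500 bases took 43.8% ± 6.77 of the gene's TPM in siPDCD4 and 57.3% ± 8.80 in siCT (SD, n = 3 each), from 4.36% ± 0.98 and 7.96% ± 2.50 of its counts.

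When transcripts under 500 bases were left out of every gene, the log2 fold change of SRRM2 was -0.08 (adjusted p = 0.969), and when SRRM2-202 alone was left out it was -0.24 (adjusted p = 0.696). Both alternatives were chosen after the values were seen. With coding transcripts alone the sign turned, to 0.09 (adjusted p = 0.940). With the offset in place, leaving out any siPDCD4 library or siCT replicate 2 also ended the call, with adjusted p between 0.105 and 0.209 and a log2 fold change between -0.50 and -0.45. Salmon divides the reads of this shared exon among overlapping transcripts, and whether the short transcripts were themselves lower was not tested with reads.

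SRRM1, which encodes the partner of SRRM2 in splicing coactivation, had 102, 97.9 and 103 CPM in siPDCD4, against 108, 105 and 112 CPM in siCT. The groups did not overlap, and the log2 fold change was -0.10 ± 0.08 (adjusted p = 0.870). Without the offset it was -0.07.

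Among the 12 SR proteins proper 0 were called by edgeR or DESeq2 and 0 had an unadjusted p under 0.05 in edgeR. Over all genes edgeR called 0.429% and DESeq2 181 of 13821, and 8.62% had such a p in edgeR. Their log2 fold changes lay between -0.17 and 0.41 with a median of 0.0018. SRSF12, a little-expressed SR protein described as a splicing repressor, had 3.0, 3.15 and 3.74 CPM in siPDCD4, against 2.39, 2.36 and 2.73 CPM in siCT. The log2 fold change was 0.41 ± 0.25 (adjusted p = 0.763), and at 0.815 TPM it was by far the least abundant of the family. SRSF8, a relative of SRSF2 whose reads may be shared with it, had 39.4, 31.0 and 33.5 CPM in siPDCD4, against 44.6, 39.1 and 33.1 CPM in siCT, and the groups overlapped. SRSF4 had 61.4, 57.9 and 61.5 CPM in siPDCD4, against 65.5, 62.5 and 67.4 CPM in siCT, so its groups did not overlap, with a log2 fold change of -0.11 ± 0.09 (adjusted p = 0.860). SRSF1, the prototype of the family, had 566, 590 and 556 CPM in siPDCD4, against 583, 561 and 533 CPM in siCT, and its interval ran from -0.14 to 0.20 on the log2 scale. SRSF3, the smallest SR protein and the most abundant per length at 312 TPM, had 368, 350 and 318 CPM in siPDCD4, against 405, 370 and 319 CPM in siCT, and these overlapped (-0.08 ± 0.10).

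The hnRNPs bind nascent transcripts and influence exon choice, RNA export and stability. Of 26 members 23 were tested, since HNRNPCL1, HNRNPCL3 and HNRNPCL4 were listed at 0 in all 6 libraries. Of the 23, 0 were called by edgeR or DESeq2, with 1 at an unadjusted p under 0.05 in edgeR. Over all genes edgeR called 0.429% and DESeq2 181 of 13821, and 8.62% had such a p in edgeR. HNRNPA3, an hnRNP of the A/B type, had 94.2, 97.5 and 98.3 CPM in siPDCD4, against 89.1, 77.2 and 81.9 CPM in siCT. The siPDCD4 libraries all lay above the siCT libraries, by 0.22 ± 0.09 on the log2 scale (unadjusted p = 0.0257, adjusted p = 0.469), and by 0.20 without the length offset. HNRNPM, which regulates alternative exons by binding GU-rich introns, had 105, 111 and 115 CPM in siPDCD4, against 138, 147 and 100 CPM in siCT, so siCT replicates 1 and 2 lay above all siPDCD4 libraries and siCT replicate 3 below them. The log2 fold change of HNRNPM was -0.22 ± 0.13 with the offset and -0.10 without it. HNRNPR had 1.77, 2.72 and 6.92 CPM in siPDCD4, against 5.59, 2.14 and 0.772 CPM in siCT, and its interval from -1.43 to 2.17 says little. Only 2 of its 14 annotated transcripts were matched, the canonical one not among them, and HNRNPL likewise rests on 2 of 15, so both values cover part of a gene. HNRNPA1 shares sequence with HNRNPA1L2 and HNRNPA1L3, and HNRNPUL2 with its readthrough HNRNPUL2-BSCL2, so reads may be divided among them.

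The most abundant splicing factors per length were hnRNPs and Sm proteins. HNRNPC, which binds uridine tracts, had 694, 675 and 689 TPM in siPDCD4, against 742, 692 and 607 TPM in siCT. HNRNPA1 followed with 556, 573 and 554 TPM in siPDCD4, against 562, 557 and 515.1 TPM in siCT. HNRNPH1, a binder of G-rich RNA, had 537, 497 and 590 TPM in siPDCD4, against 477, 514.5 and 573 TPM in siCT. SNRPE had 555, 560 and 513 TPM in siPDCD4, against 581, 528 and 429 TPM in siCT, and SNRPD2 516, 537 and 477 TPM in siPDCD4, against 616, 523 and 427 TPM in siCT. HNRNPA1, HNRNPH1, SNRPE and SNRPD2 overlapped, so their order is not resolved, while HNRNPC stood above them in each library. HNRNPK, SRSF3 and SNRPG came next with means of 357, 312 and 252 TPM. HNRNPK, which binds C-rich RNA, had 361, 360 and 338 TPM in siPDCD4, against 381, 383 and 322 TPM in siCT. SNRPG, a ring protein, had 270, 276 and 209 TPM in siPDCD4, against 296, 268 and 190 TPM in siCT. All 8 had overlapping groups.

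The 8 Sm ring proteins had log2 fold changes between -0.06 and 0.12. SNRPD3 had 155, 168 and 137 CPM in siPDCD4, against 170, 120 and 134 CPM in siCT (0.12 ± 0.13). SNRPN, an imprinted gene whose product is nearly identical to that of SNRPB, had 36.8, 34.1 and 38.4 CPM in siPDCD4, against 39.9, 36.5 and 37.4 CPM in siCT (-0.06 ± 0.10). SNRPB had 199, 203 and 159 CPM in siPDCD4, against 196, 202 and 151 CPM in siCT. For SNRPB in CPM, and for SNRPG and SNRPE in TPM, replicate 3 was the lowest library of each group.

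Of the proteins bound to a single snRNP, SNRPA1, of U2, had 22.7, 23.4 and 20.9 CPM in siPDCD4, against 20.6, 22.9 and 17.8 CPM in siCT, a log2 fold change of 0.13 ± 0.13 and of 0.05 without the offset. SNRPA, of U1, had 64.6, 66.6 and 59.0 CPM in siPDCD4, against 64.4, 63.3 and 54.2 CPM in siCT (0.06 ± 0.10). SNRPC, of U1, had a log2 fold change of 0.0068, and SNRPB2, of U2, of -0.01.

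The 9 subunits of SF3a and SF3b, which hold the branch point, had log2 fold changes between -0.16 and 0.15. SF3A1 had 65.4, 86.5 and 45.2 CPM in siPDCD4, against 69.9, 73.2 and 76.4 CPM in siCT, and siPDCD4 replicates 2 and 3 lay on either side of all siCT libraries (-0.16 ± 0.20). SF3A2 had 30.3, 34.3 and 24.0 CPM in siPDCD4, against 21.2, 28.2 and 30.5 CPM in siCT (0.15 ± 0.17). SF3B1, the branch-point subunit often mutated in myelodysplasia, had 416, 412 and 421 CPM in siPDCD4, against 465, 412 and 326 CPM in siCT (0.05 ± 0.12).

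U2AF1, the small U2AF subunit that reads the AG of the 3′ splice site, had 46.5, 51.4 and 46.5 CPM in siPDCD4, against 49.1, 37.6 and 38.4 CPM in siCT. Of its siCT libraries replicate 1 fell among the siPDCD4 libraries. The log2 fold change was 0.21 ± 0.12 (adjusted p = 0.747), and 0.09 without the offset. U2AF2, the large subunit that binds the polypyrimidine tract, had 184, 207 and 165 CPM in siPDCD4, against 179, 203 and 180 CPM in siCT (-0.01 ± 0.10). U2AF1L4, a minor paralogue of U2AF1, had 4.17, 3.44 and 4.82 CPM in siPDCD4, against 4.37, 3.31 and 2.67 CPM in siCT (0.26 ± 0.26). Among the Sm, single-snRNP, SF3 and U2AF proteins 0 were called by edgeR or DESeq2, and 0 had an unadjusted p under 0.05 in edgeR. Over all genes edgeR called 0.429% and DESeq2 181 of 13821, and 8.62% had such a p in edgeR.

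Average transcript length mattered for few other members. Over all 61 the median absolute difference between the log2 fold changes with and without the offset was 0.018, beside 0.0348 over all genes, and 3 members (4.92%) differed by at least 0.2, beside 9.27% of all genes. These were SRRM2 (-0.41), U2AF1L4 (0.23) and HNRNPR (0.20). Among members with at least 5 CPM, HNRNPM (-0.12), U2AF1 (0.12), HNRNPUL1 (-0.09), SF3A1 (-0.09) and SNRPA1 (0.08) came after SRRM2. For HNRNPM the average length was 1677, 1640 and 1332 bases in siPDCD4, against 1381, 1274 and 1672 bases in siCT. The 298-base transcript HNRNPM-210 had counts in siPDCD4 replicate 3 (28.7) and siCT replicates 1 and 2 (41.1 and 50.8) and was listed at 0 in the other libraries, the same division as that of the lengths. HNRNPUL1 had 214, 211 and 216 CPM in siPDCD4, against 214, 216 and 213 CPM in siCT, and its average length was 2456, 2488 and 2340 bases in siPDCD4, against 2272, 2366 and 2190 bases in siCT. In the limma test of average length 0 of 56 members with several transcripts were called at an FDR of 5%, beside 0% of all genes, and 1, SRRM2, had an unadjusted p under 0.05, beside 4.22% of all genes.

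Turning to single transcripts, edgeR called 0 of 394 tested transcripts of the members at an FDR of 5%, beside 0% of all 47375, and 7 had an unadjusted p under 0.05, beside 3.11% overall. DESeq2 called 2, beside 0.643% of the transcripts it tested. These were HNRNPD-204 and HNRNPUL1-206. HNRNPD encodes AUF1, a binder of AU-rich elements. Its coding transcript HNRNPD-204 (2136 bases) had 53.6, 31.4 and 30.2 counts in siPDCD4, against 0, 0 and 0 in siCT. A 0 of reads counted directly allows up to 3 counts. Salmon divides reads among the gene's 18 listed transcripts, so an estimated 0 can stand for more. The transcript made up between 3.34% and 5.51% of the gene's counts in siPDCD4. The gene as a whole had 55.0, 68.2 and 52.4 CPM in siPDCD4, against 52.9, 58.6 and 45.7 CPM in siCT. HNRNPUL1-206 (816 bases) had 8.18, 8.67 and 6.03 counts in siPDCD4, against 45.2, 31.5 and 34.3 in siCT, a log2 fold change of -2.17 ± 0.40 (adjusted p = 0.452 in edgeR and 0.0425 in DESeq2). For both the groups were far apart, but they were named because DESeq2 called them, and edgeR did not call them.

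Of the other transcripts with the smallest p, HNRNPA3-219, a coding form of 1911 bases, had 19.0, 18.2 and 19.0 TPM in siPDCD4, against 14.6, 14.1 and 13.0 TPM in siCT (0.41 ± 0.10, adjusted p = 0.817). HNRNPU-205, from the gene of scaffold attachment factor A, had 7.83, 7.96 and 9.14 TPM in siPDCD4, against 6.65, 6.26 and 5.23 TPM in siCT (0.45 ± 0.14). HNRNPK-207, annotated for nonsense-mediated decay, had 18.3, 18.4 and 0 counts in siPDCD4, against 111, 147 and 121 in siCT (-3.34 ± 1.16, unadjusted p = 0.0296). It made up at most 0.166% of the gene's counts in siPDCD4 and 1.39% in siCT. SF3B1-208, a retained-intron form, had 89.2, 219 and 71.3 counts in siPDCD4, against 31.4, 66.3 and 11.3 in siCT (1.99 ± 0.76). SRRM2-217, another retained-intron form, had 323, 296 and 363 counts in siPDCD4, against 556, 378 and 424 in siCT. Of these the groups of SRRM2-217 overlapped once scaled for library size, and the others stood apart, all with an adjusted p of 0.817 or 1.00. They were picked for the smallest p, so their standing apart adds nothing to it. The share of all transcripts that stand apart was not counted.

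Within genes, the shares of single transcripts were tested with diffSpliceDGE for 45 members. None, 0 of 45, was called at an FDR of 5%, beside 0.444% of 7877 genes, and 0 had an unadjusted Simes p under 0.05, beside 1.22%. The smallest Simes p-values were those of SRRM2 (0.349), SRSF6 (0.424), SF3A2 (0.631), U2AF1L4 (0.679), U2AF2 (0.705) and SNRPB (0.719).

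Transcripts were also summed by annotated class. Nonsense-mediated decay transcripts held 7.85%, 8.18% and 7.90% of the members' counts in siPDCD4, against 8.62%, 8.32% and 8.26% in siCT, so each siPDCD4 library lay just below each siCT library. Over all protein-coding genes these shares were 4.03%, 4.18% and 4.17% in siPDCD4, against 4.42%, 3.94% and 4.0% in siCT. The pooled share of the members was not tested, and genes with many counts weigh most in it. A single gene can thus carry so narrow a gap. For SRRM2 the decay share was 23.2%, 21.9% and 19.1% in siPDCD4, against 23.2%, 26.7% and 25.9% in siCT. Retained-intron transcripts held 10.0%, 8.96% and 11.3% of the members' counts in siPDCD4, against 8.93%, 9.66% and 12.7% in siCT, and these overlapped. Both classes thus took a larger part of the counts of splicing factors than of protein-coding genes at large in 6 of 6 libraries. Such shares depend on how many transcripts of each class are annotated. Of the members' 802 listed transcripts 149 were annotated for decay and 184 with a retained intron. The part of annotation in this difference was not tested.

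**Figure D3:**
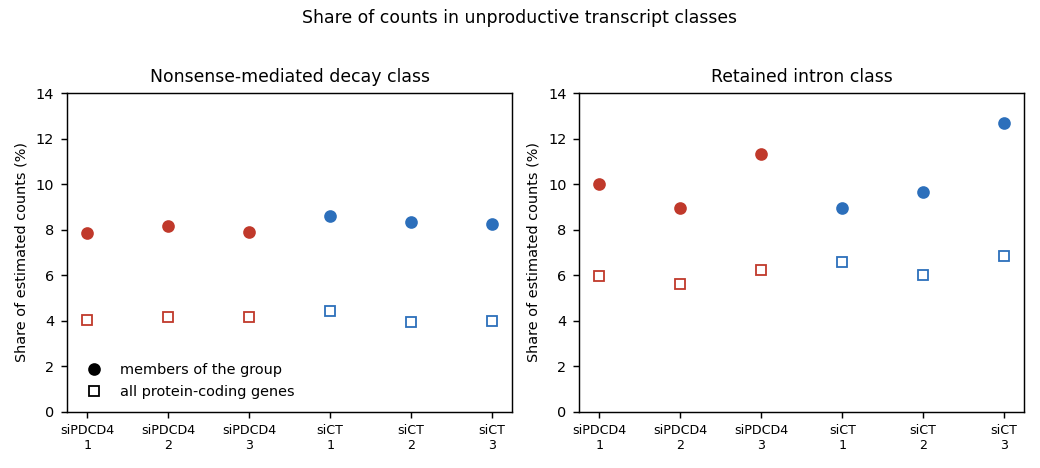
Percent of estimated counts in transcripts annotated for nonsense-mediated decay (left) and with a retained intron (right), for the splicing factor genes (filled circles) and all protein-coding genes (open squares), in each siPDCD4 (red) and siCT (blue) library. The decay class held 7.85% to 8.18% in siPDCD4 and 8.26% to 8.62% in siCT. These are sums over genes, not tested, in which a single abundant gene such as SRRM2 can carry a narrow gap.

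By gene and class, 0 of 99 pairs from 41 members were called at an FDR of 5%, beside 0.0667% of 14985 pairs, and 2 had an unadjusted p under 0.05, beside 1.45%. These 2 were the non-coding class ("other") of SRRM2, which is mostly SRRM2-202, and that of SRSF6. For SRRM2 it held 4.56%, 3.64% and 3.48% of the gene's counts in siPDCD4, against 8.63%, 6.56% and 4.48% in siCT, and the groups overlapped. The SRSF6 class is the transcript SRSF6-206, with 15.3%, 8.33% and 15.1% of the gene's counts in siPDCD4, against 17.8%, 17.8% and 15.5% in siCT (unadjusted p = 0.0393). The decay transcript SRSF6-202 had 15.3%, 18.8% and 14.5% in siPDCD4, against 11.8%, 13.6% and 13.7% in siCT (unadjusted p = 0.101). Both carry the 268-base exon shown above, and the 2 transcripts moved in opposite directions. SRSF3 decay transcripts held 1.70%, 1.84% and 2.02% of its counts in siPDCD4, against 2.35%, 3.01% and 2.56% in siCT (unadjusted p = 0.130). Retained-intron transcripts of SF3A2 held 16.9%, 14.7% and 17.6% in siPDCD4, against 21.9%, 23.5% and 25.7% in siCT (unadjusted p = 0.181), and those of HNRNPA3 15.9%, 14.3% and 10.4% in siPDCD4, against 12.9%, 20.5% and 17.9% in siCT (unadjusted p = 0.161). For U2AF1L4 the coding class held 18.6%, 18.2% and 23.8% in siPDCD4, against 17.6%, 0% and 0% in siCT (unadjusted p = 0.0584), where U2AF1L4-201 drew at most 13.6 counts in siPDCD4 and 11.1 in siCT. SRRM2 decay transcripts held 23.2%, 21.9% and 19.1% in siPDCD4, against 23.2%, 26.7% and 25.9% in siCT (unadjusted p = 0.167). The adjusted p was 1.00 in each of these comparisons.

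The poison exons themselves were followed by adding up every transcript that contains them. An exon was taken where it holds the premature stop of a transcript annotated for nonsense-mediated decay, is skipped by the canonical transcript and lies in transcripts with at least 10 counts per library on average. There were 17 such exons in 14 members. The shares below are of the whole gene's TPM, which gives short transcripts more weight and includes transcripts that do not span the exon. They are thus not inclusion levels. For the SRSF6 exon in siPDCD4 replicate 1, 1228 of the gene's 4006 counts came to 59.1% of its TPM. The share of the gene's TPM with the exon separated the groups for 0 of the 17, beside 9.1% of 1428 such exons over all genes. For the 268-base exon of SRSF6 it was 59.1%, 49.7% and 57.7% in siPDCD4, against 57.4%, 60.4% and 56.8% in siCT, so in TPM the sum of SRSF6-202 and SRSF6-206 did not separate. In share of the gene's counts, another measure, each transcript alone did. For SRSF6-206 this was narrow, at 15.3% in siPDCD4 replicate 1 against 15.5% in siCT replicate 3. The share of all gene and class pairs that separate was not counted. For the 175-base exon of SRSF4 the share was 11.3%, 9.70% and 9.55% in siPDCD4, against 7.79%, 7.83% and 13.9% in siCT. For SRSF3 the 456-base exon stood at 1.64% ± 0.45 in siPDCD4 and 2.15% ± 0.14 in siCT (SD, n = 3 each). The SRSF7 exon was at 0.80% ± 0.18 in siPDCD4 and 0.82% ± 0.17 in siCT, and the SRSF11 exon at 1.32% ± 0.31 in siPDCD4 and 2.10% ± 1.47 in siCT. Outside the SR family the 56-base exon of SF3B1 had 17.1%, 18.7% and 19.3% in siPDCD4, against 19.6%, 19.9% and 8.75% in siCT, and the groups overlapped. It rested on 1 transcript, SF3B1-202, with 155, 134 and 158 counts in siPDCD4, against 227, 178 and 43.3 in siCT. Exons of HNRNPH1, HNRNPLL, HNRNPU, SF3B3, SNRPB, SRRM2, U2AF1L4 and U2AF2 overlapped likewise.

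**Figure D4:**
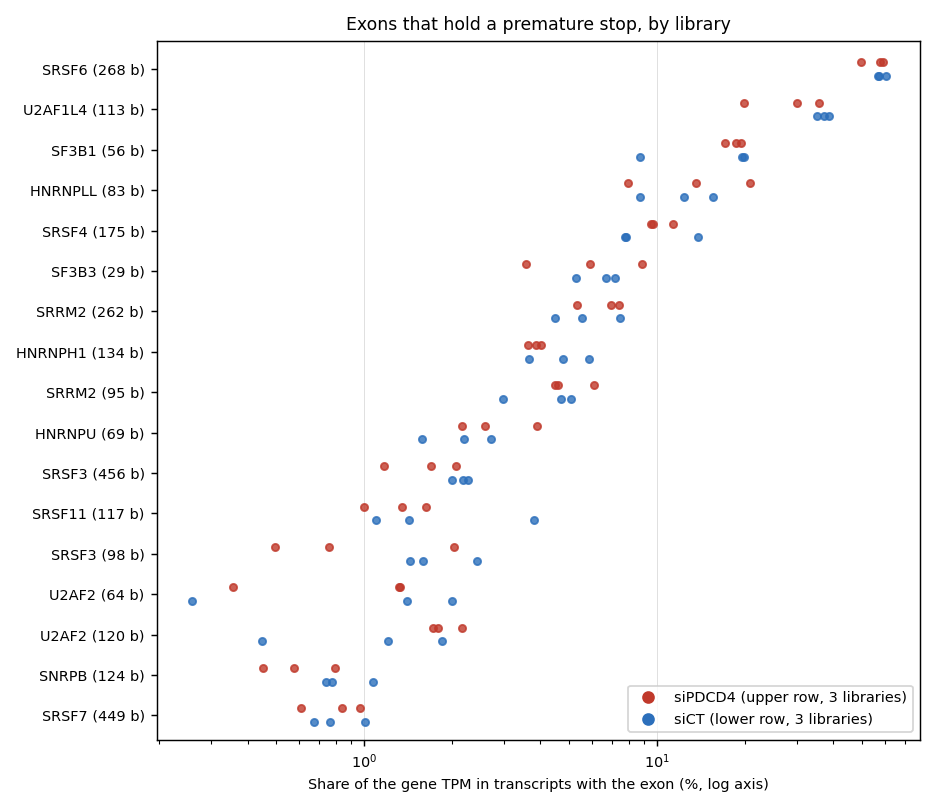
Percent of each gene's TPM in transcripts that contain an exon with a premature stop (log axis), for 17 exons in 14 genes, labelled by gene and exon length. Red points are the 3 siPDCD4 libraries, drawn above the 3 siCT libraries in blue. The 2 colours overlap in each pair of rows, and shares run from under 1% for SRSF7 to 58.2% on average in siCT for SRSF6.

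In 10 lists of further splicing genes, 164 genes were tested, with a median log2 fold change of -0.02. Of these 0 were called by edgeR, DESeq2 or limma-voom, and 4 had an unadjusted p under 0.05 in edgeR, beside 8.62% of all genes. Over all genes edgeR called 0.429%, DESeq2 181 of 13821 and limma-voom 108 of 13047. DHX38, a helicase of the catalytic steps, had 70.0, 69.1 and 68.9 CPM in siPDCD4, against 82.1, 80.2 and 87.9 CPM in siCT (-0.27 ± 0.08, adjusted p = 0.312), and its log2 fold change without the length offset was -0.14. GEMIN4, of the SMN complex that assembles snRNPs, had 56.4, 59.8 and 47.0 CPM in siPDCD4, against 71.1, 73.1 and 59.3 CPM in siCT, with a log2 fold change of -0.32 that came to -0.05 without the length offset. RBM39, a U2AF2-related factor, had 281, 268 and 280 CPM in siPDCD4, against 301, 304 and 350 CPM in siCT (-0.20, and -0.09 without the offset). CLK2, a kinase of SR proteins, had 4.32, 8.97 and 4.72 CPM in siPDCD4, against 7.66, 9.92 and 10.4 CPM in siCT (-0.64 ± 0.28).

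By list, 0 genes were called among 17 tested genes of U1, U2 and the E and A complexes, 23 of the tri-snRNP, 26 of the Prp19 complex and catalytic steps, 9 of the minor spliceosome, 9 SR kinases and import factors, 18 SR-like and speckle proteins, 31 other splicing regulators, 15 of the exon junction complex and decay pathway, and 15 of the SMN complex. Over all genes edgeR called 0.429%. In the first list the U1-associated LUC7L had a log2 fold change of 0.19 ± 0.11. The smallest p-values were in the second list those of LSM8 (0.31 ± 0.17, and 0.05 without the offset) and SNRNP27 (0.17 ± 0.11, and 0.07 without it), and in the third PRPF18 (-0.23 ± 0.11) after DHX38. In the next lists these were SNRNP35 (0.15 ± 0.14, and 0.09 without it) and SNRNP25 (1.19 ± 1.33), SRPK2 (-0.12 ± 0.09) after CLK2, and the speckle-linked SCAF1 (0.28 ± 0.14, and 0.14 without it) and SRRT (-0.10 ± 0.09, and -0.04 without it). PTBP3 (-0.19 ± 0.10, and -0.12 without it) followed RBM39 among the regulators, MAGOHB (0.20 ± 0.16) led the decay list, and GEMIN8 (-0.25 ± 0.13) followed GEMIN4. In the SMN list 2 of 15 log2 fold changes lay above 0, with a median of -0.08, beside -0.0055 over all genes. This list was picked out of 10. Neither the share of all genes above 0 nor the list's count without the length offset was taken. Of 10 tested splicing-associated proteins that the study pulled down with PDCD4, none (0) was called, with 0 at an unadjusted p under 0.05. Over all genes these shares were 0.429% and 8.62% in edgeR. In this list LUC7L2 (0.14 ± 0.10, and 0.08 without it) and SRPK2 had the smallest p.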

How the data were processed

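Libraries from total RNA were read as pairs of 75 bases, and the authors ran Salmon against the human GRCh38 transcriptome, importing with tximport and testing with DESeq2. The deposited tables give estimated counts, TPM and effective lengths per transcript, all made by the authors' Salmon run. Of 194142 listed transcripts, 181244 were matched by identifier to GENCODE 44 (GRCh38), and 12898 were not used here.

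Estimated counts were summed per gene, rounded and compared by edgeR 4.0.16, under R 4.3.3 (robust quasi-likelihood F test, TMM, filterByExpr, group as the factor, an offset for average transcript length), adjusted by Benjamini-Hochberg over all 13047 genes at an FDR of 5%. CPM are edgeR levels with that offset, except for the marker sums and where the text says otherwise. A value after ± is an SE for a log2 fold change and an SD otherwise. Transcripts were tested without the offset, shares with diffSpliceDGE (transcripts of at least 5% and classes of at least 2% of a gene's counts, the latter with a mean of 5 counts) and log2 average lengths with limma 3.58.1. DESeq2 1.42.0, limma-voom, other normalisations and filters, coding transcripts alone and leaving out each library were alternatives. Scripts were tested on simulated data. Python 3.11.15, pandas 2.3.3 and matplotlib 3.10.9 served for tables and figures.

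The members and lists were chosen with earlier results of these data known. Named genes were members past the threshold in any test, the 2 per role with the smallest p and the 2 with the largest change at 1 CPM or more, the 6 with the strongest length dependence at 5 CPM or more, the 6 with the smallest isoform p, the 8 gene and class pairs and 8 transcripts with the smallest p, the 8 most abundant members, and, per other list, genes past the threshold or the 2 with the smallest p. SRSF1 and SRSF4, SNRPC and SNRPB2, and the further poison exons were named after their values were seen. The poison exon comparison was also added after the data were seen. Sequencing reads and splice junctions were not analysed here. Exons and sequences follow GENCODE 44 and GRCh38. A few genes that the rule names, and 1 exon, are not reported here.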

Additional observations from a re-analysis of the deposited data

How the results depend on the processing

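The count of called members was 1 or 0 in every setting, and SRRM2 was the gene called in 10 of 19 alternatives. It was 0 without the length offset, with limma-voom (run without the offset), with coding transcripts alone, without transcripts under 500 bases and without SRRM2-202, and in these settings 1 member had an unadjusted p under 0.05, in place of 2, beside 8.6% to 10.2% of all genes. The last 2 settings were chosen after the data were seen. With coding transcripts alone the log2 fold change of SRRM2 turned to 0.095. These settings remove or reweight its short transcripts. Leaving out 1 library at a time gave 0 to 1 called members, 1 to 5 at an unadjusted p under 0.05 (beside 6.22% to 11.1% of all genes), a median log2 fold change between -0.05 and 0.07, and 5 to 16 members whose groups did not overlap, beside 21.0% to 29.5% of all genes. The 16 members (26.2%) came without siCT replicate 1, where 23.6% of all genes did not overlap, so their share was near the background. With all libraries 5 members did not overlap, beside 13.9% of all genes. There were 3 with upper quartile factors, beside 14.1%, and 2 in each of 3 other settings, beside 16.2% without the offset or with limma-voom and 15.8% with coding transcripts alone. The cause was not tested. Transcripts called were 0 with edgeR and 2 with DESeq2. Called members stayed at 0 in the share and length tests in every setting. Of 570 log2 fold changes of 30 named members under the alternatives 37 changed sign, 1 of them for a called gene (SRRM2). Over all genes edgeR called 56, against 128 without the offset, 102 with the block and 181 with DESeq2.

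Deviations of same-numbered libraries had weak positive correlations (0.07, 0.12 and 0.18 for replicates 1, 2 and 3). The other pairings ran from -0.19 to 0.10, and all were below 0 except siPDCD4 replicate 1 with siCT replicate 2 (0.10). Deviations were taken from each group's own mean, so positive values in some pairings force lower values in others. The low values of the other pairings thus add no evidence of pairing. The numbers were not taken as pairs in the main test, and whether same-numbered libraries share an effect was not tested. With a replicate block 1 member was called, SRRM2 at -0.47, 2 had an unadjusted p under 0.05 (beside 11.2% of all genes), the median was 0.0028, 5 did not overlap (beside 13.9%), and 0 were called for transcripts, shares, classes or lengths.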
